A study of Mus musculus with 6 samples.

Results

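Phosphoglucomutases and the enzymes that make and break glycogen were examined in mouse AML1-ETO9a leukaemia cells labelled wildtype or knockout for AES. AES is a small protein of the Groucho/TLE co-repressor family. The set holds 9 genes out of 19938 measured under 1 symbol, namely Pgm1, Pgm2, Pgm2l1, Pgm3, Ugp2, Gys1, Gbe1, Pygl and Pygb, and each was read from the 1 probe set that carried its symbol. The set was chosen by the difference of Pgm1 between knockout and wildtype, which had the third smallest p of all genes on these same arrays. The other 8 genes were added for their place in the same reactions, with results of these arrays known. For this reason the differences of the 9 genes between the groups are given as a description, and their counts in the fit across all genes are printed beside the background with nothing read from them.

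The cells were fetal liver cells from C57BL/6 embryos of embryonic day 14.5 that had been transduced with AML1-ETO9a, a shortened AML1-ETO fusion that is leukaemogenic in mice, and transplanted into recipient mice. Cells of the wildtype group carried wildtype Aes alleles and cells of the knockout group carried floxed Aes alleles, and recipients received tamoxifen 4 weeks after the transplant. GFP-positive cells, which express AML1-ETO9a, were sorted from the spleen, after death from leukaemia in the wildtype group and at the end of the experiment in the knockout group. Genotype and time of collection therefore cannot be told apart. The Cre transgene that acts on the floxed alleles is not given in the sources used here. Each group had 3 samples, each hybridised to 1 array, and no label names a separate mouse for each sample, so the errors measure only the spread between these samples. The values are intensities taken to be on a log2 scale, a base the deposited table does not state, on which a difference of 1 is a 2-fold change, and the number of arrays limits their precision.

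Phosphoglucomutase moves the phosphate of a glucose phosphate between carbons, so that glucose 1-phosphate from glycogen can enter glycolysis and glucose 6-phosphate can leave it for glycogen. UDP-glucose pyrophosphorylase activates glucose 1-phosphate, glycogen synthase adds the glucose to a growing chain, the branching enzyme makes side chains, and glycogen phosphorylase releases glucose 1-phosphate again. Neutrophils keep glycogen as a fuel store, and low oxygen raises several of these enzymes in many cell types through the transcription factor HIF-1. In current mouse nomenclature Pgm1 is the counterpart of human PGM1 and Pgm2 that of human PGM2, and the names were once exchanged. Here the platform annotation and the RefSeq gene table gave the same symbol to the same gene identifier for each of the 9 genes.

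The promoters of Pgm1, Pgm2 and Gbe1 are printed because Pgm1 was the 1 gene whose groups did not overlap, Pgm2 is the paralogue whose mean lay lowest in knockout relative to wildtype cells, and Gbe1 varied most between arrays. Each window runs from 250 bases before to 50 bases after the annotated start in RefSeq, build GRCm38.p6, written 5′ to 3′ on the strand of the gene. Capitals mark the core ACGTG or GCGTG of the HIF binding motif on either strand (CACGT or CACGC on the strand printed). The Pgm1 window lies at chr4:99929201-99929500 on the plus strand, the Pgm2 window at chr5:64092689-64092988 on the plus strand and the Gbe1 window at chr16:70313699-70313998 on the plus strand.
Pgm1: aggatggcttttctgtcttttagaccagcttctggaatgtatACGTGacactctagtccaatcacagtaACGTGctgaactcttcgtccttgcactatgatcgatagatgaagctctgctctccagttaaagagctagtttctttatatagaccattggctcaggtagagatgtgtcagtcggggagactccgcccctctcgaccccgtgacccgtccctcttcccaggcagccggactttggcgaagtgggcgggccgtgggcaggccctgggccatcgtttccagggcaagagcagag
Pgm2: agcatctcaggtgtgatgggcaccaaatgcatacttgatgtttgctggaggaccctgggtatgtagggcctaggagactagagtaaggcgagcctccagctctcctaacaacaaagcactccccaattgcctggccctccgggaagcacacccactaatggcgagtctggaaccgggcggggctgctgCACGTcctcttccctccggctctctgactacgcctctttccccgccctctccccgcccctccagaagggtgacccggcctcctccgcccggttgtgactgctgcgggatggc
Gbe1: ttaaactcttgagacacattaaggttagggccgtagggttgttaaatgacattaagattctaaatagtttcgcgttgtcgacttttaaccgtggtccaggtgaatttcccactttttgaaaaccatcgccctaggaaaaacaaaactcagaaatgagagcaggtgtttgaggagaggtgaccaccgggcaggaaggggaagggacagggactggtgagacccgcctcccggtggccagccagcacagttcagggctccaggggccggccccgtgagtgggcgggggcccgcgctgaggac
The Pgm1 window held 2 matches, both of ACGTG, beginning 208 and 181 bases before the start. The Pgm2 window held 1 match, 62 bases before the start, and the Gbe1 window held 0. All 9 genes had a window and Ugp2 had 2, and 7 of these 10 windows held a core. Among the 32851 windows of the same length in the table, 43.8% held one. ACGTG was in 19.6% and GCGTG in 32.4% of all windows, which may hold both, and the palindrome CACGTG, which counts as a match on each strand, in 7.15%. The windows of the 9 genes held between 14 and 39 CG dinucleotides against a median of 7 over all windows, and 1 window of Ugp2 held 6 matches and its other window 0. Pgm2l1, Pygl and Pygb each had 2 matches, Pgm3 had 1 and Gys1 had 0. A match describes the letters of the window and is not a measured binding site.

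The deleted gene was low on the arrays labelled knockout. Aes, listed as Tle5, had wildtype values of 11.13, 11.10 and 11.11 and knockout values of 8.80, 9.33 and 8.86, 4.34-fold lower by the means. It did not pass with limma in the fit on all 6 arrays (adjusted p = 0.234). Its knockout values lay above the array medians of 6.47 to 6.65. Y-linked genes were low on knockout replicates 1 and 3, with a mean deviation of the 3 measured genes of -3.38 and -2.68 from their 6-array mean against 1.39 to 1.65 on the other 4 arrays. Neutrophil markers, all 13 of them measured, had higher means in knockout cells for 13 of 13, with a median difference of 0.65, and 0 of them passed with limma. Their mean level ranged from 5.32 to 8.73 on the wildtype and from 5.28 to 9.13 on the knockout arrays. Their mean deviation was -2.12 on wildtype replicate 3 and -2.16 on knockout replicate 1, whereas the remaining arrays lay between -0.11 and 1.69. Mast cell and basophil markers deviated by 1.66 and -1.40 on wildtype replicates 1 and 2 and by -1.57 and 0.97 on knockout replicates 1 and 2. Macrophage markers deviated by -1.07 and 1.37 on knockout replicates 1 and 3. Higher means in knockout cells were found for 10 of 12 myeloid progenitor and blast markers, with a median difference of 0.11. The same held for 7 of 7 B-cell, 4 of 5 erythroid and 5 of 10 macrophage markers. The count was 4 of 8 for mast cells and basophils and 2 of 5 for megakaryocytes and platelets. It was 1 of 8 for T and NK cells. The lists held 10 erythroid, 8 megakaryocyte and platelet, 8 B-cell and 10 T and NK genes, and the others were not measured. Of all genes, 50.9% had a higher mean. Kit, the stem cell factor receptor of immature blood cells, read between 10.60 and 11.80 on all arrays, while Mpo, Elane and Cd34 lay below the array median of 6.47 to 6.65 on at least 1 array. Of the 12 markers of myeloid progenitors and blasts, 3 were above the median of every array. A smaller share of a cell type and less RNA per cell cannot be told apart in these bulk samples.

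**Figure D1:**
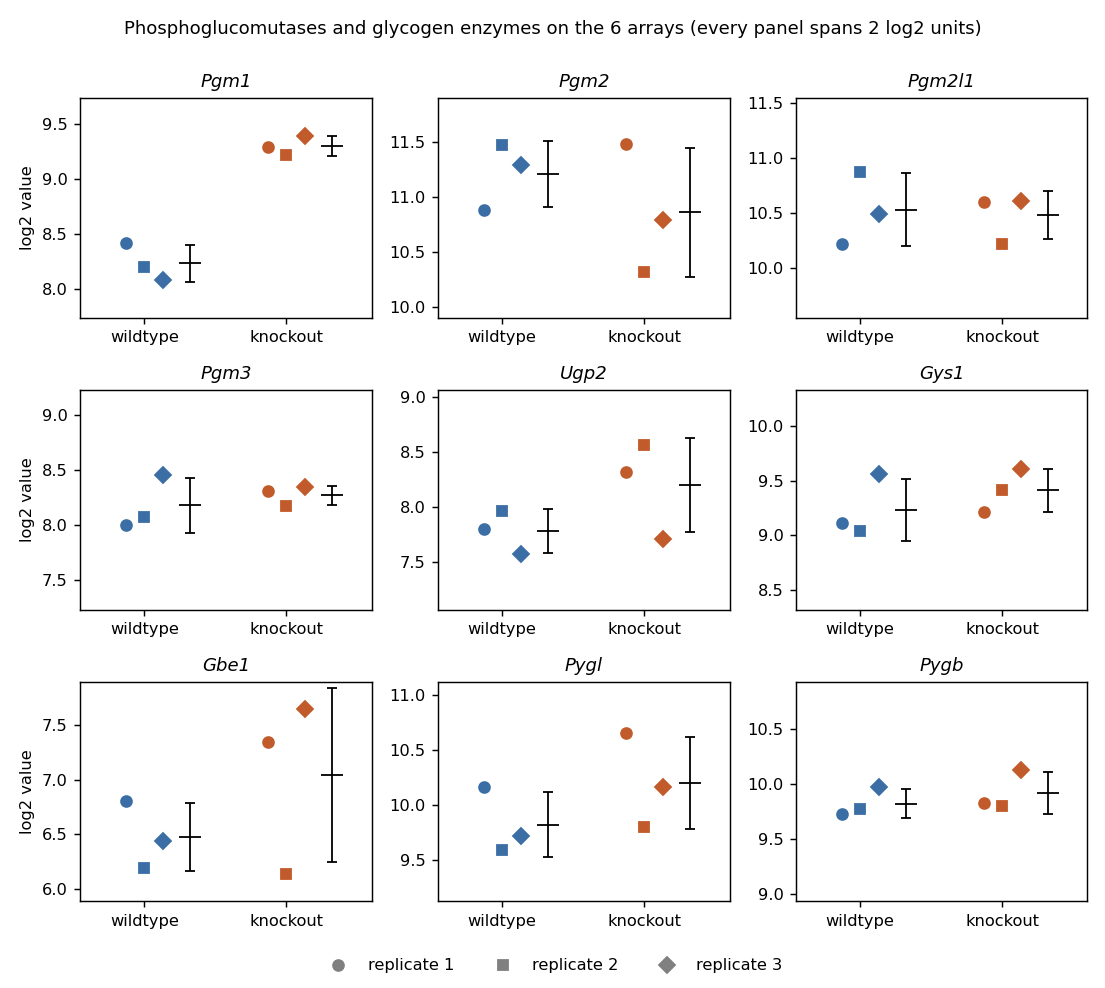
Log2 value of each of the 9 genes (y axis, 2 log2 units in every panel) on the 3 wildtype (blue) and 3 knockout (orange) arrays, with the marker shape giving the replicate and the black bar the group mean ± SD. Only Pgm1 has knockout arrays (9.22 to 9.39) that all lie above the wildtype arrays (8.08 to 8.42).

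Pgm1, the main phosphoglucomutase of most tissues, was higher on every knockout array. It read 8.42, 8.20 and 8.08 on wildtype replicates 1 to 3 and 9.29, 9.22 and 9.39 on knockout replicates 1 to 3. The groups did not overlap, the lowest knockout array lay 0.80 above the highest wildtype array, and the arrays within a group spanned 0.34 in wildtype and 0.17 in knockout cells. The means were 8.23 ± 0.17 in wildtype and 9.30 ± 0.09 in knockout cells (SD, n = 3 each), a difference of 1.07 (SE 0.11) or 2.10-fold. A gap between the groups at least as wide was found for 11 of the 19938 genes including Pgm1, of which 2 were higher in knockout cells. A difference of group means of at least 2-fold was found for 1.47% of all genes, in either direction. Pgm1 was chosen for its small p on these same arrays, which favours a wide gap, so nothing is read from these shares. Leaving out each array in turn gave differences between 1.00 and 1.16.

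The values of Pgm1 are set here beside those of Y-linked genes and neutrophil markers, whose part in its difference was not tested. Knockout replicate 2, where Y-linked genes were at the wildtype level, read 0.99 above the wildtype mean for Pgm1, against 1.06 and 1.16 on knockout replicates 1 and 3. Knockout replicate 1 and wildtype replicate 3, the arrays lowest in neutrophil markers, differed by 1.21 for Pgm1. Knockout replicate 2 and wildtype replicate 1, with neutrophil marker deviations of 1.42 and 1.29, differed by 0.80.

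Pgm2, a phosphoglucomutase that acts mainly on pentose phosphates such as ribose 1-phosphate, had a lower mean in knockout cells. It read 10.88, 11.47 and 11.29 in wildtype and 11.48, 10.32 and 10.79 in knockout cells. The highest and the lowest array were both knockout, replicates 1 and 2, and the groups overlapped. The means were 11.21 ± 0.30 and 10.86 ± 0.59 (SD, n = 3 each), a difference of -0.35 (SE 0.32), which is close to its own error. It was -0.66 without knockout replicate 1, -0.076 without knockout replicate 2 and -0.22 without wildtype replicate 2, and with array weights it was -0.67. Relative to the wildtype mean, Pgm2 deviated by 0.27, -0.89 and -0.42 on knockout replicates 1 to 3. For Pgm1 these deviations were 1.06, 0.99 and 1.16.

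Pgm2l1, which makes glucose 1,6-bisphosphate, the cofactor of the other phosphoglucomutases, read 10.22, 10.87 and 10.49 in wildtype and 10.60, 10.22 and 10.61 in knockout cells. The lowest value of either group was the same to 2 decimals, and the difference of the means was -0.05 (SE 0.20). Its sign turned under 2 alternatives, to 0.079 without knockout replicate 2 and 0.12 without wildtype replicate 2, and it was -0.26 with array weights.

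Pgm3, which acts on N-acetylglucosamine phosphate in the synthesis of UDP-N-acetylglucosamine, read 7.996, 8.07 and 8.46 in wildtype and 8.31, 8.17 and 8.35 in knockout cells. The knockout values all lay inside the range of the wildtype values. The difference was 0.10 (SE 0.14), and the wildtype arrays spanned 0.46. With single arrays left out it ran from 0.0071 without wildtype replicate 1 to 0.24 without wildtype replicate 3.

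Ugp2, the UDP-glucose pyrophosphorylase, was higher on 2 of the 3 knockout arrays than on any wildtype array. It read 7.80, 7.96 and 7.57 in wildtype and 8.32, 8.56 and 7.71 in knockout cells. Knockout replicate 3 lay among the wildtype arrays, so that the groups overlapped. The means were 7.78 ± 0.20 and 8.20 ± 0.43 (SD, n = 3 each), a difference of 0.42 (SE 0.24) or 1.34-fold. It was 0.24 without knockout replicate 2 and 0.66 without knockout replicate 3.

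Gys1, the glycogen synthase of muscle and most other tissues, read 9.11, 9.04 and 9.56 in wildtype and 9.21, 9.41 and 9.61 in knockout cells. Replicate 3 was the highest array in each group and the groups overlapped. The difference was 0.18 (SE 0.18), as large as its error. It was 0.079 without knockout replicate 3 or without wildtype replicate 2, 0.11 without wildtype replicate 1, 0.28 without knockout replicate 1 and 0.34 without wildtype replicate 3.

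Gbe1, the glycogen branching enzyme, varied most of the 9 genes. It read 6.80, 6.19 and 6.44 in wildtype and 7.34, 6.14 and 7.64 in knockout cells. Knockout replicates 1 and 3 were the highest arrays and knockout replicate 2 the lowest of all 6, and replicates 1 and 3 are also the arrays low in Y-linked genes. Their part in the Gbe1 values was not tested. The means were 6.48 ± 0.31 and 7.04 ± 0.79 (SD, n = 3 each), a difference of 0.56 (SE 0.41). Without knockout replicate 2 the difference was 1.01, without knockout replicate 3 it was 0.26, and with array weights it was 0.23. Only 3 of the 6 values lay above the median of their array, and with no detection call the low values may be background, so no fold is given.

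Both glycogen phosphorylases had groups that overlapped. Pygl, the liver-type glycogen phosphorylase, which is also the form of leukocytes, read 10.16, 9.59 and 9.72 in wildtype and 10.65, 9.80 and 10.16 in knockout cells. Knockout replicate 1 was the highest array, and knockout replicate 3 was level with wildtype replicate 1. The difference was 0.38 (SE 0.26), and it was 0.16 without knockout replicate 1 and 0.58 without knockout replicate 2. Pygl was highest on knockout replicate 1, where neutrophil markers were lowest, and stood at 9.72 on wildtype replicate 3, where they were nearly as low. The part of these markers in the Pygl values was not tested. Pygb, the brain-type phosphorylase found in many tissues, read 9.73, 9.77 and 9.97 in wildtype and 9.83, 9.80 and 10.13 in knockout cells, and its difference was 0.10 (SE 0.13). That of Pygb ran from -0.010 without knockout replicate 3 to 0.17 without wildtype replicate 3.

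**Figure D2:**
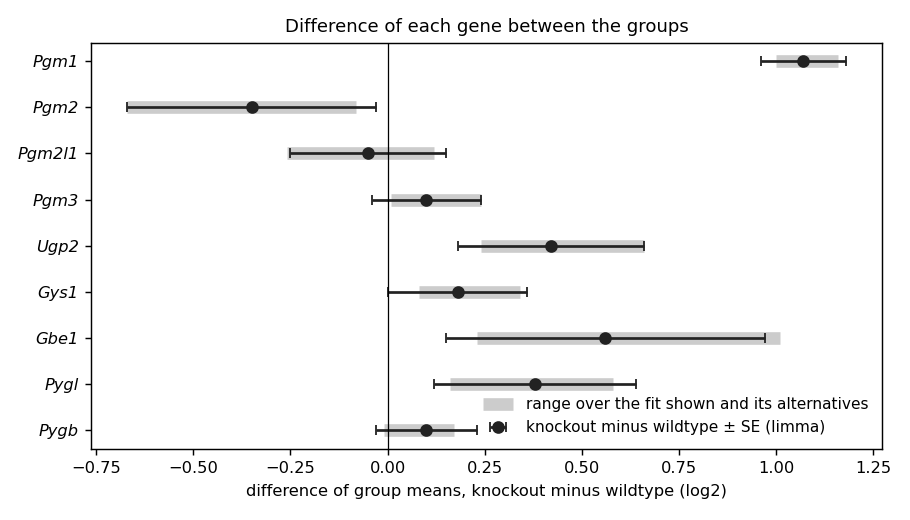
Difference of the group means (x axis, log2, knockout minus wildtype) for each of the 9 genes, with the SE from limma as black bars and, in grey, the range over the fit and its alternatives. Pgm1 lies at 1.07 with a grey range from 1.00 to 1.16, and the other 8 genes lie between -0.35 and 0.56.

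Across the set, 7 of the 9 genes had a higher mean in knockout cells and 2, Pgm2 and Pgm2l1, a lower one, where 50.9% of all genes had a higher mean. The groups did not overlap for 1 of the 9, against 7.15% of all genes (3.65% with the knockout arrays higher and 3.51% with them lower). With limma and Benjamini-Hochberg adjustment over all 19938 genes, 0 of the 9 had an adjusted p under 0.05, as did 0% of all genes. At an unadjusted p under 0.05 there was 1 of the 9, Pgm1, and 505 of all genes. Nothing is read from these counts, since the set was drawn from this contrast. The median difference of the 9 genes was 0.18, against 0.0029 over all genes, and 0.14 over the 8 genes other than Pgm1. Leaving out wildtype replicate 3 raised it to 0.31, while it was 0.11 with wildtype replicate 1 left out and 0.079 with knockout replicate 3 left out. For 8 of the 9 genes, all but Pgm1, the knockout arrays spanned more than the difference between the groups.

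**Figure D3:**
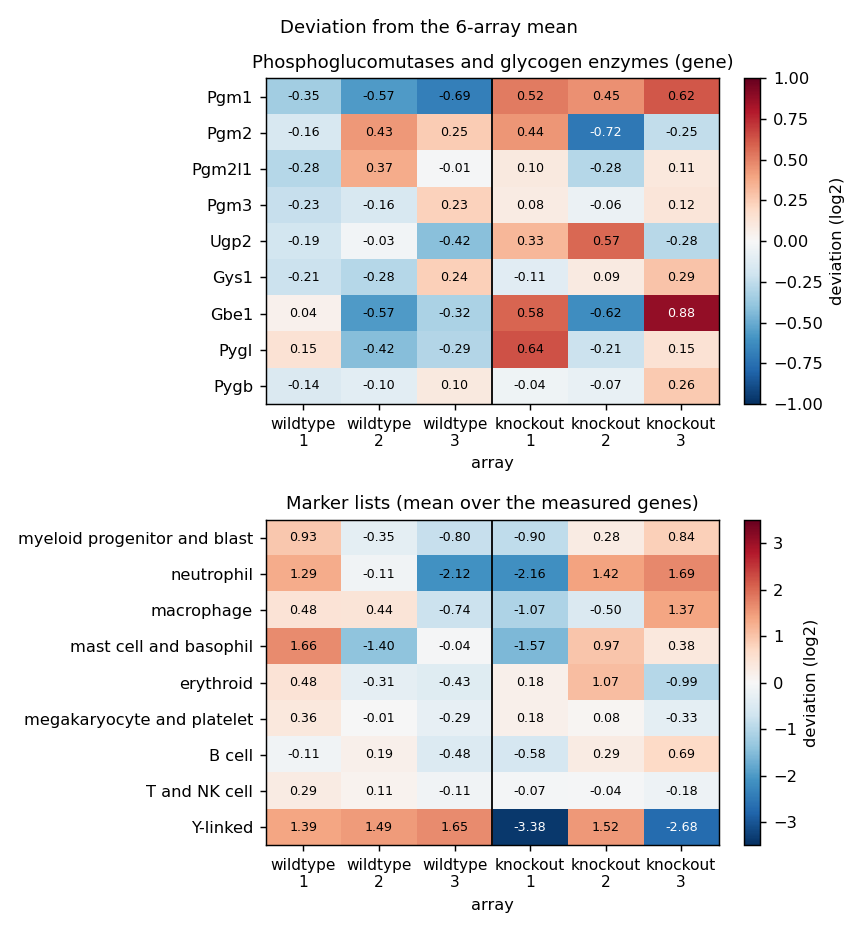
Deviation from the 6-array mean (colour and printed value, log2; scales differ between panels) of each of the 9 genes (top) and of marker lists averaged over their measured genes (bottom) on the 6 arrays. Pgm1 changes sign at the line between the groups, while neutrophil markers are lowest on wildtype replicate 3 (-2.12) and knockout replicate 1 (-2.16) and Y-linked genes on knockout replicates 1 (-3.38) and 3 (-2.68).

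The genes whose pattern over the 6 arrays was most like that of Pgm1 were sought among 9607 named genes with a mean above the median of all genes. Fyttd1, an mRNA export adaptor, came first with a Pearson r of 0.987 and read 8.53, 8.46 and 8.40 in wildtype and 8.73, 8.78 and 8.77 in knockout cells. Its difference, 0.30, was smaller than that of Pgm1. Stam2, an adaptor of endosomal sorting (r = 0.973), Ttc17 (0.971), the cytoskeletal Septin2 (0.961) and Tmem43 (0.959) followed, with differences of 0.32, 0.25, 0.27 and 0.23. Each of the 5 is higher on every knockout array, which the likeness to Pgm1 largely fixes, and a search over so many genes with 6 points finds high values readily. Of the other 8 enzymes, Pygl had the highest r with Pgm1, 0.619, and Pgm2 the lowest, -0.444.

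For Gbe1, the gene with the widest range, the closest patterns were those of the splicing factor Srsf5 (r = 0.989), the ribosomal protein Rpl10 (0.972), the fatty acid transporter Slc27a4 (0.969), the transcription factor subunit Taf4b (0.961) and Trim8 (0.957). Taf4b moved about as far as Gbe1, reading 8.15, 8.06 and 7.95 in wildtype and 8.97, 7.66 and 9.16 in knockout cells, whereas Rpl10 stayed between 13.38 and 13.54. Among the other 8 enzymes, Pygl was closest to Gbe1 (r = 0.806) and Ugp2 farthest (-0.224). These values over 6 arrays of 1 deposited table are a description.

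The other genes of these pathways were examined in 9 lists with 62 measured genes, and none of them passed. Not every listed gene was measured. Glycogen breakdown had 3 of 4 listed genes measured and glucose 6-phosphate entry and exit 10 of 13. UDP-glucose and galactose had 7 of 9 and the hexosamine pathway 11 of 12. At a limma adjusted p under 0.05 there were 0 higher and 0 lower genes among the 62, as for 0% of all genes. At an unadjusted limma p under 0.05 there were 3 of the 62, against 505 of all 19938 genes. Their median difference was 0.007, close to the 0.003 of all genes, with 33 higher and 29 lower means. The groups did not overlap for 4 of 62 (6.45%), near the 7.15% of all genes. The genes named are those of smallest unadjusted p in each list.

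Phosphorylase kinase, which activates glycogen phosphorylase, had 5 measured subunits with a median difference of 0.167. Phka1, its regulatory alpha subunit of muscle, read 7.96, 6.00 and 5.48 in wildtype and 7.95, 8.33 and 8.14 in knockout cells. Wildtype replicate 1 was level with knockout replicate 1, and the other wildtype arrays were below the array medians, where values may be background. The difference was 1.66 (SE 0.64, limma adjusted p = 1.00), its size depends on those low values, and no fold is given. The catalytic subunit Phkg2 and the beta subunit Phkb had differences of 0.25 and 0.17 and overlapping groups.

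Around glycogen synthase, Gyg, the glycogenin that primes new glycogen, had a difference of 0.26 (SE 0.50), and Gys2, the liver form of the synthase, lay below the array median on all arrays. Of its kinases, Gsk3b and Gsk3a had differences of 0.17 and 0.05, and the AMPK subunit Prkaa2, also below the array medians, 0.11. The groups did not overlap for Gsk3a and Prkaa2, as for 7.15% of all genes. Of 9 phosphatase targeting subunits and laforin-malin genes, 3 had higher and 6 lower means, with a median of -0.029. Ppp1r3c, which brings protein phosphatase 1 to glycogen, read 5.32, 5.35 and 5.28 in wildtype and 5.18, 5.18 and 5.12 in knockout cells. These values all lay below the array medians, and the groups did not overlap. Ppp1r3f and Ppp1r3e had -0.15 and 0.11. In glycogen breakdown, lysosomal Gaa had 0.32 (SE 0.36), the muscle phosphorylase Pygm 0.01 and the glycogen-binding Stbd1 -0.07, each with overlapping groups.

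Genes of glucose 6-phosphate entry and exit had higher means for 7 of 10, with a median of 0.168, where 50.9% of all genes had a higher mean. The glucose transporter Slc2a3 read 11.50, 11.02 and 11.25 in wildtype and 11.72, 12.04 and 11.47 in knockout cells. Knockout replicate 3 overlapped the wildtype arrays, and the difference was 0.49 (SE 0.19, limma adjusted p = 1.00). Slc37a4, the glucose 6-phosphate carrier of the endoplasmic reticulum, had 0.26 and the hexokinase Hk2 -0.29. In the pathway of Pgm3, Gnpnat1, the acetyltransferase that makes its substrate, read 8.35, 8.47 and 8.39 in wildtype and 8.69, 8.78 and 8.64 in knockout cells. The groups did not overlap, and the difference was 0.30 (SE 0.08, unadjusted p = 0.0093, limma adjusted p = 1.00). Gnpda2, a glucosamine 6-phosphate deaminase, had 0.51 and Uap1l1 -0.30. Beside Ugp2, the galactosyltransferase B4galt1 had 0.31, the UDP-glucose dehydrogenase Ugdh 0.07 and Galm -0.21. Among pentose phosphate genes next to Pgm2, Rpia had -0.32 (SE 0.38), Pnp -0.34 (SE 0.63) and Upp1 0.07 (SE 0.11), each with overlapping groups. Lower means were found for 7 of 10, with a median of -0.018 against 0.003 over all genes.

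**Figure D4:**
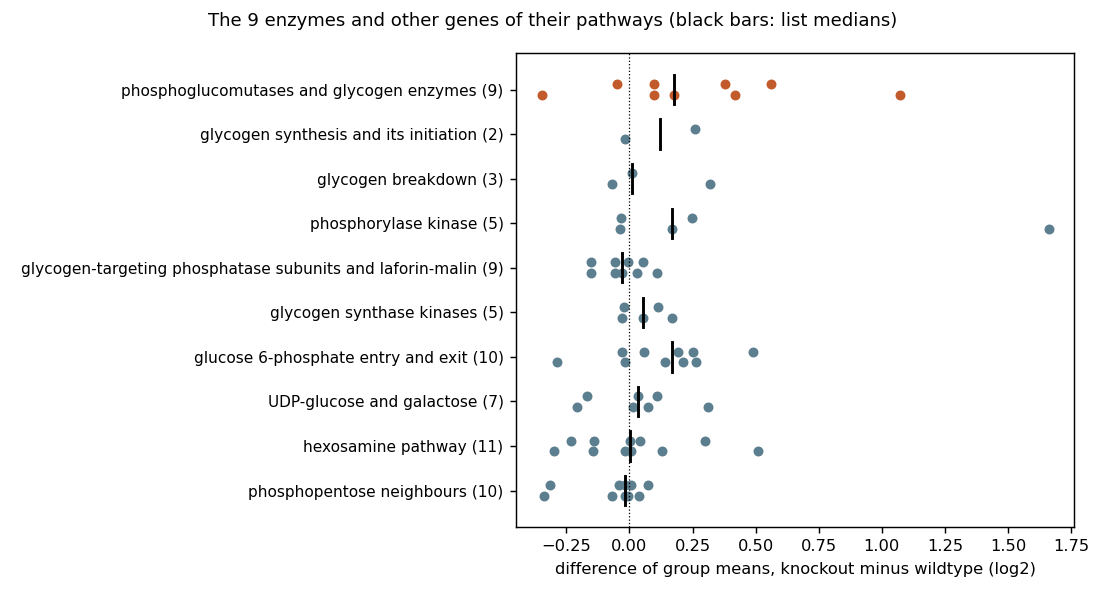
Difference of group means (x axis, log2, knockout minus wildtype) for each of the 9 enzymes (orange) and for the other measured pathway genes by list (grey-blue, number of genes in brackets), with list medians as black bars. Pgm1 lies at 1.07 and Phka1, whose size rests on wildtype values below the array medians, at 1.66, and the median of the 62 other genes is 0.007.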

How the data were processed

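RNA of sorted GFP-positive spleen cells was hybridised to Affymetrix mouse arrays, 1 per sample. The authors deposited processed values between 2.67 and 14.37, used here as log2 values. The base was taken from their range, and no source used here names the background correction, probe summary or normalization. Of 35512 rows, 21789 carried 1 gene symbol. The row with the highest mean over 6 arrays was used for each of 19938 genes, of which 999 had several rows. No detection calls were used. Sample labels gave the groups.

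The groups were compared in limma (two-sided, eBayes moderation, no block), with p-values adjusted over all genes (Benjamini-Hochberg, threshold 0.05). The fit was also run on simulated data with known changes and independent noise for each gene. Independent noise leaves out variation shared between genes, so nothing is read from it. The 9 members and the lists of pathway genes and markers were chosen with earlier results of these data known. Named were all members, up to 3 genes of each pathway list by smallest unadjusted p, genes of marker lists given beside a member, and the 5 genes with the highest Pearson r to the member with the largest difference and to that with the widest range (mean above the median of all genes, no predicted or clone names). Alternatives covered normalization, filters, fit options, rows and single arrays. Promoters came from RefSeq, GRCm38.p6. Tests ran in limma 3.58.1 under R 4.3.3, and figures and counts in Python 3.11.15 with matplotlib 3.10.9.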

Additional observations from a re-analysis of the deposited data

How the results depend on the processing

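Under 13 alternatives (12 for Gbe1, which the filter on dim genes removed), 7 of the 9 enzymes kept the sign of their difference. The eBayes trend and robust option alters only the variance, and the replicate block leaves a difference unchanged in this balanced design. The filter leaves a kept gene as it was, and so does the mean of rows for an enzyme with 1 row. Median centring adds the same amount to every difference, and this was too small to turn even the smallest, that of Pgm2l1 (-0.050 to -0.025). Only quantile normalization, array weights and single arrays left out could turn a sign. For Pgm1, whose groups did not overlap, neither array weights nor leaving out an array could do so. Pgm2l1 and Pygb took both signs, between -0.26 and 0.12 and between -0.01 and 0.17. Pgm1 ranged from 1.00 to 1.16, and was 1.05 with quantile normalization and 1.10 with median centring. With single arrays left out, the median of the 9 enzymes ranged from 0.079 to 0.31 and that of the 62 pathway genes from -9.9e-05 to 0.048. The count of all genes with a limma adjusted p under 0.05 ranged from 0 to 3: without knockout replicate 2, Tle5 and the Y-linked Kdm5d and Uty were lower. Knockout replicate 2 was the only knockout array with Y-linked genes at the wildtype level. Without it, low Y-linked genes and genotype cannot be told apart. The count was 0 under the other alternatives, including a fit without variance moderation (661 at an unadjusted p under 0.05). No enzyme or pathway gene passed under any alternative. The replicate numbers did not pair the samples (correlations of deviations -0.259, -0.228 and 0.075), and with the replicate block 0 genes passed. Each enzyme had 1 row and 1 name in both annotations, so testing rows apart or exchanging the names of Pgm1 and Pgm2 was not run. Signal near the array median limits Gbe1.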
